A study of Homo sapiens with 4 samples.

Results

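The genes described here are 10 targets and components of the transforming growth factor beta (TGF-beta) and bone morphogenetic protein (BMP) pathways, namely TGFB1, ID1, ID2, ID3, ID4, SMAD6, SMAD7, BAMBI, SKIL and TGFBI. They were taken by symbol from a list of pathway genes, and all 10 were among the 17755 genes of the expression table. The table came from RNA sequencing of 2 human melanoma cell lines, SK-MEL-28 and A375, transfected with a control siRNA (siNC) or with an siRNA against the long noncoding RNA LINC00622 (siLINC00622). After transfection the cells were kept for 6 h in medium without serum and then for 24 h in medium with serum before RNA was taken. There was 1 library for each line and treatment, 4 in all, so each line stands for a single culture per condition. The labels give the material as melanoma tissue, although each label also names a cultured line, and they do not say which of the study's siRNAs against LINC00622 was used. An siRNA lowers the RNA and leaves the gene in place.

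Ligands of the TGF-beta and BMP families bind pairs of serine/threonine kinase receptors, which phosphorylate receptor SMADs (SMAD2 and SMAD3 for TGF-beta and activin, SMAD1, SMAD5 and SMAD9 for BMP). These join SMAD4, enter the nucleus and switch on target genes. The targets include the ID genes, whose proteins dimerise with E proteins and keep them off DNA, and several brakes on the pathway itself, so their mRNA levels are widely used as a readout of signalling. Serum carries ligands of both families.

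The 2 siRNAs designed in the study are shown first because they define the perturbation. Each is written as its target in the sense strand of the LINC00622 transcript, with capitals marking the bases that pair with positions 2 to 8 of the guide strand, its seed. In the annotated LINC00622 transcript of 1570 bases the first covers bases 555 to 573 and the second bases 815 to 833.
siLINC00622_1: ccctaaagaaaGTGAGAAa
siLINC00622_2: ggcaacctctaATTGACTt

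A seed can also pair with other mRNAs, so the longest annotated 3' UTR of each gene was searched for the same 7 letters. The letters for siLINC00622_1 were present in 13.1% of 19132 genes and, among the 10 genes, in ID4 (1 match, at base 561 of 1489). Those for siLINC00622_2 were present in 10.2% of genes and in TGFBI (1 match, at base 283 of 592). TGFB1 held neither. The matches are shown with their surrounding bases, the paired letters in capitals, so that the ID4 and TGFBI values below can be read beside them.
ID4, siLINC00622_1: gttctataagtGTGAGAAagtatatgcttt
TGFBI, siLINC00622_2: ccaaatgtggaATTGACTgcctatgccaag

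The promoters of the 10 genes, taken from RefSeq (assembly GRCh38.p14) as the 250 bases before to 50 bases after each start, were searched on both strands for DNA elements of the pathway. All 10 genes had an entry, and SMAD7 had 3 starts, giving 12 promoters. The palindromic SMAD element GTCTAGAC was present in 1 of the 10 genes, SMAD6, and in 0.202% of all 35116 promoters. The BMP SMAD element GGCGCC was present in 3 genes (BAMBI, SKIL and TGFBI) and in 19.2% of promoters, and the short SMAD element CAGAC in 5 genes and in 45.3% of promoters. The CREB element TGACGTCA was present in SKIL and in 1.85% of promoters, and the AP-1 element TGANTCA in 0 of the 10 genes and in 7.71% of promoters. An E-box, the site of the E proteins, was present in 4 genes and in 68.7% of promoters. No searched element contains another. Elements farther from the starts were not searched, so an absence covers these windows only. The gene counts stand beside shares of promoters. Of the 12 promoters, 6 held CAGAC and 5 an E-box. The windows below show the rarer elements in capitals. The SMAD6 window is chr15:66702213-66702242, that of BAMBI, which had 3 matches, is chr10:28677313-28677342, that of TGFBI is chr5:136028865-136028894, and those of SKIL are chr3:170357513-170357542 and chr3:170357650-170357679, all on the plus strand.
SMAD6, GTCTAGAC: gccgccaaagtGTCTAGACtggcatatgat
BAMBI, GGCGCC: gcgccccagccgGGCGCCccagacgccggc
TGFBI, GGCGCC: cacgggttgggaGGCGCCaggcggcccgcc
SKIL, GGCGCC: gcccgcgcgcgcGGCGCCgccgctggctcc
SKIL, TGACGTCA: cgaggactcggTGACGTCAgagggctgtgt

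The libraries held 31269923 to 36384819 counts. In SK-MEL-28, LINC00622 itself had 309 counts with siNC and 135 after siLINC00622 (log2 ratio -1.21, 95% interval -1.53 to -0.93). In A375 it had 135 and 86 counts (log2 ratio -0.84, -1.27 to -0.46), so it was lower in the siLINC00622 library of both lines. Intervals on ratios within a line are exact Clopper-Pearson intervals of the counts and cover counting error only, since the reads carry no molecular identifiers and no condition has a second library. All 8 melanocyte lineage markers examined were listed. SOX10, the lineage transcription factor, lay between 118 and 153 FPKM (fragments per kilobase of transcript, scaled to library size) in the 4 libraries, whereas PMEL, a melanosome structural protein, was at 940 and 1134 FPKM in SK-MEL-28, against 2.24 and 2.35 FPKM in A375. MITF, the pigment cell master regulator, was at 80.1 and 74.9 FPKM in SK-MEL-28, against 5.29 and 4.95 FPKM in A375. Of 9 markers of keratinocytes, fibroblasts, leukocytes and endothelium, 3 were listed. KRT14 and PDGFRB had at most 6 counts per library in SK-MEL-28 and 416 to 547 in A375, and LUM had 803 and 892 counts in SK-MEL-28, against 187 and 372 in A375.

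The first question was how strongly each gene was expressed in these melanoma cells. On the FPKM scale ID3 led in SK-MEL-28 and ID1 in A375. This scale divides by a length per gene, and whether it is that of the expressed transcript was not tested. In the A375 siNC library TGFBI had more counts than BAMBI, 1897 against 971, and the lower FPKM, 7.86 against 14.5. Their annotated exon bases were 7810 and 2314. Orders and sums across genes depend on the length used, while comparisons of the same gene between libraries do not. In the SK-MEL-28 siNC library the order from the highest level was ID3, BAMBI, ID2, ID1, SKIL, SMAD7, TGFB1, ID4, SMAD6 and TGFBI. Counting intervals of neighbours in that order overlapped for ID2 and ID1, for TGFB1 and ID4, and for SMAD6 and TGFBI. In the A375 siNC library the order was ID1, ID3, TGFB1, BAMBI, TGFBI, SMAD6, SKIL, SMAD7, ID2 and ID4, with overlap only for TGFBI and SMAD6. With siLINC00622, TGFB1 had rank 9 of the 10 in SK-MEL-28 and overlapped both SMAD6 and TGFBI, while in A375 SKIL and SMAD6 exchanged places and SMAD6 overlapped SMAD7.

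**Figure D1:**
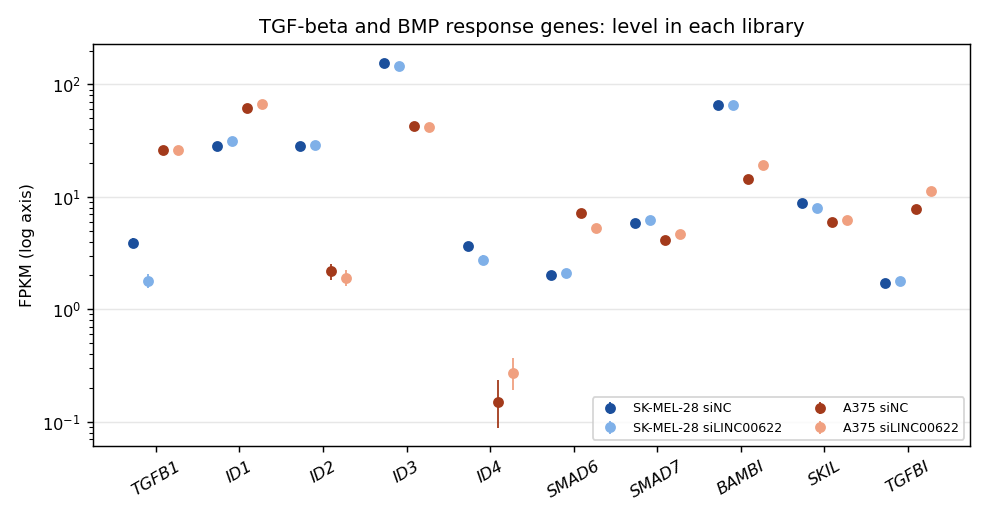
Level of each gene (FPKM, log axis) in the 4 libraries, 1 point per library, with 95% counting intervals that are often smaller than the point. ID2, ID3, ID4 and BAMBI sit higher in both SK-MEL-28 libraries, and TGFB1, TGFBI, ID1 and SMAD6 higher in both A375 libraries. The 2 treatments of a line lie over 1.5-fold apart only for TGFB1 in SK-MEL-28, at 3.88 and 1.78 FPKM, and ID4 in A375. ID4 was at 0.149 and 0.270 FPKM there, with overlapping intervals. Smaller differences with intervals apart include TGFBI in A375, at 7.86 and 11.3 FPKM.

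The 4 ID genes encode helix-loop-helix proteins that lack a DNA-binding region. ID3 was at 154 and 145 FPKM in SK-MEL-28 (siNC, then siLINC00622) and at 42.3 and 41.5 FPKM in A375. ID1 was at 28.5 and 31.2 FPKM in SK-MEL-28, against 61.8 and 66.8 FPKM in A375, the reverse order of the lines. ID2 reached 28.6 and 28.9 FPKM in SK-MEL-28 against 2.17 and 1.89 in A375, and ID4 3.63 and 2.77 FPKM against 0.149 and 0.270. ID2, ID3 and ID4 were thus higher in both SK-MEL-28 libraries, and ID1 in both A375 libraries. Differences between these lines were common. In the edgeR test between the lines described below, 33.9% of 16258 genes were called higher in SK-MEL-28 and 35.1% lower. A difference between these lines is therefore not particular to the ID genes.

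Summed over the family, ID mRNA came to 215 and 208 FPKM in SK-MEL-28, against 106 and 110 FPKM in A375. ID3 made up 71.7% and 69.8% of that sum in SK-MEL-28, against 39.8% and 37.5% in A375. ID1 made up 13.3% and 15.0% in SK-MEL-28, against 58.1% and 60.5% in A375. In these 4 libraries the makeup of the family followed the line rather than the treatment. ID2 supplied 13.3% and 13.9% of the sum in SK-MEL-28, against 2.04% and 1.71% in A375, and ID4 at most 1.69% in any library.

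**Figure D2:**
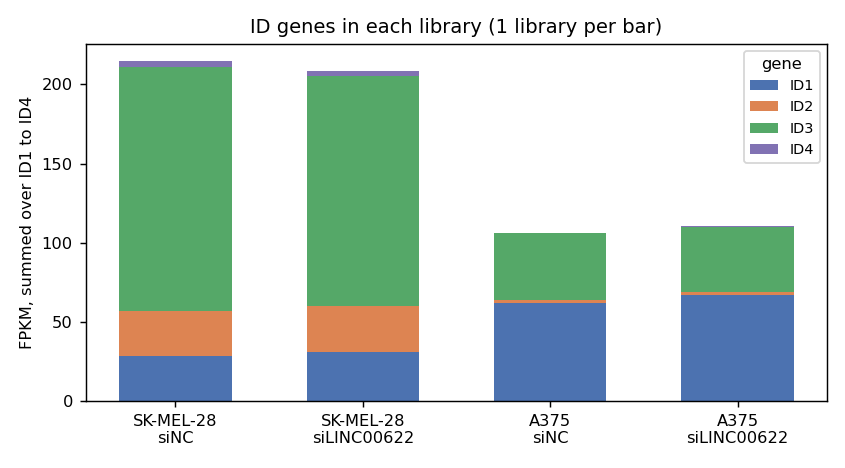
FPKM of ID1, ID2, ID3 and ID4 stacked for each library, 1 library per bar and no error bar. SK-MEL-28 bars reach 215 and 208 FPKM and are mostly ID3, and A375 bars reach 106 and 110 FPKM and are mostly ID1.

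The second comparison asked how the genes differed between SK-MEL-28 and A375 across both treatments, with edgeR's quasi-likelihood test and Benjamini-Hochberg adjustment over 16258 genes. The residual spread of this fit is what remains after line and treatment, with 1 residual degree of freedom per gene moderated across genes, so it compares these cultures. Of the 10 genes, 6 were higher in SK-MEL-28 (ID2, ID3, ID4, BAMBI, SMAD7 and SKIL) and 4 lower (ID1, SMAD6, TGFBI and TGFB1), all past an adjusted p of 0.05. Among all genes tested, 33.9% were called higher and 35.1% lower in SK-MEL-28, so a call between these lines was common. The log2 scale used here is set by TMM scaling, and scaling by library totals instead moves all SK-MEL-28 over A375 ratios by 0.17 (siNC) or 0.16 (siLINC00622) on the log2 scale.

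ID4 was 16.7-fold higher in SK-MEL-28 (log2 fold change 4.07, adjusted p = 5.163e-05, edgeR) and ID2 15.9-fold higher (log2 3.99, adjusted p = 1.185e-06). BAMBI, a receptor-like protein without a kinase that blocks TGF-beta and BMP receptors, was 4.42-fold higher (log2 2.14, adjusted p = 1.383e-05), and ID3 4.01-fold higher (adjusted p = 4.383e-06). SMAD7, an inhibitory SMAD that recruits ubiquitin ligases to the type I receptor, was 1.54-fold higher (log2 0.63, adjusted p = 0.00244). SKIL, the SnoN corepressor of SMAD complexes, was 1.53-fold higher (log2 0.61, adjusted p = 0.00163). In the opposite direction TGFB1, the ligand, was 8.63-fold lower in SK-MEL-28 (log2 -3.11, adjusted p = 0.000112). TGFBI, a secreted matrix protein named for its induction by TGF-beta, was 4.84-fold lower (log2 -2.28, adjusted p = 1.978e-05). SMAD6, the inhibitory SMAD that acts mainly on BMP signalling, was 2.68-fold lower (log2 -1.42, adjusted p = 0.000138), and ID1 1.92-fold lower (log2 -0.94, adjusted p = 0.000153). The inhibitory SMADs and the ID genes were thus split between the lines.

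Taken within each treatment, the SK-MEL-28 over A375 ratios had the same sign for all 10 genes. For ID1 the log2 ratio was -0.94 with either siRNA. That of TGFB1 was -2.57 with siNC and -3.70 with siLINC00622, and that of ID4 4.63 and 3.45. SMAD6 had -1.65 and -1.18, and BAMBI 2.34 and 1.94. The direction of each line difference was therefore seen in the siNC pair by itself and in the siLINC00622 pair. These are the libraries of the test above, so the shared sign is no independent support. The share of all genes with the same sign in both treatments was not computed.

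**Figure D3:**
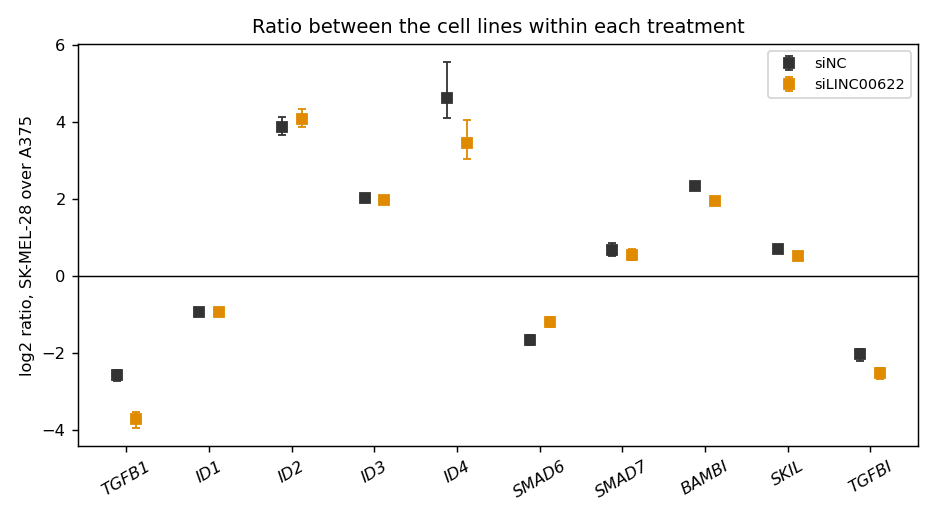
Log2 ratio of SK-MEL-28 over A375 for each gene within siNC and within siLINC00622, with 95% counting intervals, 1 library on each side of every ratio. The 6 genes above 0 and the 4 below 0 are the same with both siRNAs, and TGFB1 (-2.57 and -3.70) and ID4 (4.63 and 3.45) lie farthest apart between treatments.

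The rest of the pathway was followed through 69 further genes grouped by role, of which 59 were listed and tested. At an adjusted p under 0.05 (edgeR), 22 of these were higher in SK-MEL-28 and 29 lower, beside 33.9% and 35.1% of all genes. Their median log2 fold change was -0.42. The counts by role that follow use the same threshold and stand beside the same shares. Among 7 other ligands, 2 were higher and 5 lower. BMP7, a BMP ligand, was higher in SK-MEL-28 (log2 6.41, adjusted p = 4.79e-07, edgeR), and INHBA, the activin A subunit, lower (log2 -5.89, adjusted p = 7.616e-07). Of the 11 receptors 5 were higher and 1 lower, with TGFBR1 at log2 2.31, TGFBR3 at 3.02, BMPR1B at 2.63, BMPR2 at 1.86 and ACVR1 at 1.25, and with ENG, the co-receptor endoglin, at -1.26. TGFBR2, the type II TGF-beta receptor, differed by 0.05 (adjusted p = 0.733, edgeR), and ACVR1B, ACVR2A, ACVR2B and BMPR1A did not pass either.

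Among the 6 signalling SMADs, SMAD9 (log2 3.80), SMAD1 (0.74) and SMAD2 (0.38) were higher in SK-MEL-28 and SMAD3 (-0.56) lower, and SMAD4 (-0.17, adjusted p = 0.163, edgeR) and SMAD5 (-0.05, adjusted p = 0.621, edgeR) did not pass. Of the 10 extracellular regulators, 2 were higher in SK-MEL-28 and 8 lower, beside 33.9% and 35.1% of all genes. Among the 8 were FST, the activin trap follistatin (log2 -6.26), and THBS1, which can release latent TGF-beta (-7.30). Of 18 other target genes 6 were higher and 12 lower, beside the same shares. TGF-beta targets lay on both sides, with FN1 at log2 4.71 and SNAI2 at 7.69 higher in SK-MEL-28, and TGM2 at -6.35, PMEPA1 at -2.61 and CDKN1A at -4.48 lower. The E proteins TCF3 and TCF12, partners of the ID proteins, were 1.51-fold (adjusted p = 0.00563, edgeR) and 2.82-fold lower in SK-MEL-28 (adjusted p = 7.823e-05), while TCF4, the other E protein of the list, was not among the genes of the table.

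The third comparison was the one the study was built on, siLINC00622 against siNC within each line. With 1 library per condition it has no test, and a gene is called here when its ratio passed 1.5-fold with at least 10 counts in 1 of the 2 libraries. In SK-MEL-28, 0 of the 10 genes were over 1.5-fold higher and 1 over 1.5-fold lower, TGFB1, beside 4.56% and 6.49% of all 15442 genes with enough counts. In A375, 1 gene was over 1.5-fold higher, ID4, and 0 lower, beside 4.52% and 4.34% of 16021 genes. For the 10 genes the median log2 ratio was 0.03 in the SK-MEL-28 pair (range -1.10 to 0.14) and 0.09 in the A375 pair (range -0.44 to 0.81), and the medians over all genes were -0.004 and 0.004. Positions of the genes are given from GENCODE 29 on GRCh38, matched by symbol, and not from the table.

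TGFB1 (chr19:41301587-41353911, minus strand) had 419 counts with siNC and 198 after siLINC00622 in the SK-MEL-28 cultures. It had 2653 and 3097 counts in A375. In SK-MEL-28 the siLINC00622 library was thus 2.15-fold lower (log2 -1.10, 95% counting interval -1.36 to -0.87), a ratio with rank 184 from the lowest of the 15442 genes. In A375 the log2 ratio was 0.01 (-0.06 to 0.09), and the difference between the lines has no test. TGFB1 shares 215 of its exon bases (6.64%) with HNRNPUL1 on the opposite strand, and the library protocol is not stated to keep strand. HNRNPUL1 had 9183 and 6731 counts in SK-MEL-28 (log2 ratio -0.48) and 14079 and 12665 in A375 (-0.36), and its part in the TGFB1 counts was not tested. In bulk RNA, fewer cells carrying a transcript and less transcript per cell cannot be told apart.

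The ID genes showed small ratios apart from ID4. ID1 (chr20:31605283-31606515, plus strand) had 1165 and 1313 counts in SK-MEL-28, against 2381 and 2998 in A375, log2 ratios of 0.14 (0.03 to 0.26) and 0.12 (0.04 to 0.20). It was the only one of the 10 genes with both intervals above 0. ID2 (chr2:8678845-8684453, plus strand) had 2093 and 2186 counts in SK-MEL-28, against 150 and 152 in A375, log2 ratios of 0.03 (-0.06 to 0.12) and -0.19 (-0.53 to 0.14). ID3 (chr1:23557918-23559794, minus strand) had 7622 and 7433 counts in SK-MEL-28, against 1978 and 2257 in A375, log2 ratios of -0.07 (-0.11 to -0.02) and -0.02 (-0.11 to 0.07). All intervals of ID1, ID2 and ID3 lay within 1.5-fold of no difference, and the spread between cultures was not measured. ID2 shares 38 exon bases (1.72%) with ID2-AS1 on the opposite strand, which was not in the table.

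ID4 (chr6:19837386-19840684, plus strand) had 465 and 366 counts in SK-MEL-28, a log2 ratio of -0.37 (-0.58 to -0.18). In A375 it had 18 and 38 counts, a log2 ratio of 0.81 (0.02 to 1.76) or 1.75-fold, with rank 329 from the highest of the 16021 genes. ID4 was thus lower with siLINC00622 in SK-MEL-28, where its level was the higher, and over 1.5-fold higher in A375, where its counts were few. Whether the seed match of siLINC00622_1 in the ID4 mRNA had a part in either ratio was not tested. TCF3, an E protein, had 942 and 1392 counts in SK-MEL-28 (log2 0.53) and 1771 and 2158 in A375 (0.08), and TCF12 had 1906 and 1747 counts (-0.16) and 4881 and 6896 (0.29).

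Of the inhibitory SMADs, SMAD6 (chr15:66702228-66782848, plus strand) had 573 and 608 counts in SK-MEL-28, against 1923 and 1643 in A375. Its log2 ratio was 0.05 (-0.11 to 0.22) in SK-MEL-28 and -0.44 (-0.53 to -0.34) in A375, where the siLINC00622 library was 1.35-fold lower. SMAD7 (chr18:48919853-48952052, minus strand) had 766 and 837 counts in SK-MEL-28, against 506 and 674 in A375, log2 ratios of 0.10 (-0.05 to 0.24) and 0.20 (0.04 to 0.37). In A375 the ratios of the inhibitory SMADs were thus on opposite sides of 0.

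BAMBI (chr10:28677342-28682939, plus strand) had 4626 and 4818 counts in SK-MEL-28, against 971 and 1487 in A375, log2 ratios of 0.03 (-0.03 to 0.09) and 0.40 (0.29 to 0.52). SKIL (chr3:170357678-170396835, plus strand) had 2251 and 2112 counts in SK-MEL-28, against 1462 and 1759 in A375, log2 ratios of -0.12 (-0.21 to -0.04) and 0.06 (-0.04 to 0.16). TGFBI (chr5:136028895-136063818, plus strand) had 435 and 467 counts in SK-MEL-28, against 1897 and 3169 in A375, log2 ratios of 0.07 (-0.12 to 0.26) and 0.53 (0.45 to 0.61). TGFBI and BAMBI thus had A375 ratios of 1.44-fold and 1.32-fold with SK-MEL-28 ratios near 1. Whether the seed match of siLINC00622_2 in the TGFBI mRNA had a part in its ratios was not tested. Of the 8 melanocyte markers, A375 ratios ran from -1.08 (TYRP1) to 0.61 (S100B). The TYRP1 value rests on 13 and 6 counts, with an interval from -3.01 to 0.17. There were 2 counting intervals above 0 and 0 below, where 23.8% and 22.0% of all genes were. Their summed raw counts, 17135 with siNC and 24556 after siLINC00622, were mostly SOX10 (15109 and 22107, log2 ratio 0.34). In SK-MEL-28, 3 of the 8 intervals were above 0 (PMEL, MLANA and TYR) and 3 below (DCT, MITF and S100B). Of all genes there, 22.9% were above and 24.0% below. The SK-MEL-28 ratios of the 8 ran from -0.59 (S100B) to 0.37 (TYRP1). Of the 3 other markers, A375 ratios ran from -0.18 (KRT14) to 0.78 (LUM), with 1 interval above 0 and 0 below and summed raw counts of 1097 and 1423. The part of these markers in the A375 values was not tested.

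**Figure D4:**
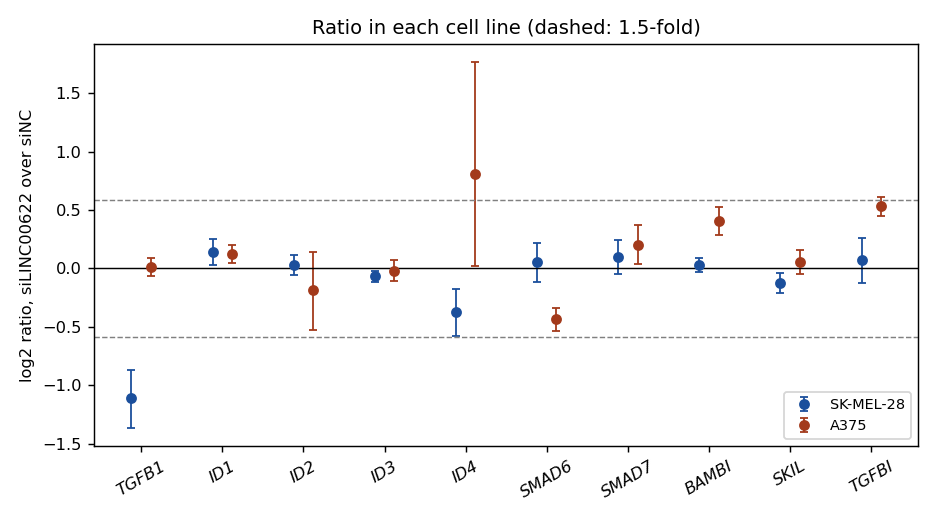
Log2 ratio of siLINC00622 over siNC for each gene in SK-MEL-28 and in A375, with 95% counting intervals, 1 library on each side of every ratio and dashed lines at 1.5-fold. TGFB1 in SK-MEL-28 (-1.10) and ID4 in A375 (0.81, with a wide interval from 18 and 38 counts) lie outside the dashed lines, and ID1 and ID3 lie near 0 in both lines.

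By counting intervals alone, 1 of the 10 genes was above 0 and 4 below 0 in SK-MEL-28, where 22.9% and 24.0% of all genes were. In A375, 5 were above and 1 below, where 23.8% and 22.0% of all genes were. Over both lines 1 gene (ID1) was above 0 in each, 0 were below 0 in each, and 1 (ID4) was on opposite sides, beside 11.0%, 11.9% and 6.40% of the 14721 genes with enough counts in both lines.

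Over both lines, with line as a block, 0 of the 10 genes passed an adjusted p of 0.05 for siLINC00622 against siNC by edgeR's quasi-likelihood test, beside 0.105% of all genes called higher and 0.154% called lower. At an unadjusted p under 0.05 there was 1, TGFBI (log2 fold change 0.34, adjusted p = 0.326 by edgeR), beside 14.7% of all genes. DESeq2 called 0 of the 9 to which it gave an adjusted p, beside 3.43% of all such genes, and had 0 of the 10 at an unadjusted p under 0.05, beside 6.58%. TGFB1 had a log2 fold change of -0.44 (adjusted p = 0.478, edgeR), BAMBI 0.22 (adjusted p = 0.455) and SMAD6 -0.20 (adjusted p = 0.56). ID1 was at 0.14, SMAD7 at 0.16 and the other members between -0.04 and -0.02. LINC00622 itself had -1.05 (adjusted p = 0.109, edgeR), so the targeted RNA did not pass either.

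The same fit called 0 of the 59 other pathway genes, with 16 at an unadjusted p under 0.05, where 14.7% of all genes were. DESeq2 called 1 of the 43 with an adjusted p, the matrix gene FN1, beside 3.43% of all such genes, and had 6 of the 59 at an unadjusted p under 0.05, beside 6.58%. FN1 had 179512 and 123970 counts in SK-MEL-28, against 6611 and 6212 in A375, log2 ratios of -0.57 and -0.30 and a fold change over both lines of -0.42 (adjusted p = 0.124, edgeR). Within SK-MEL-28, 1 of 57 other pathway genes with enough counts was over 1.5-fold higher and 5 lower, beside 4.56% and 6.49% of all genes. Their median log2 ratio was -0.11. In A375, 1 of 58 was higher and 1 lower, beside 4.52% and 4.34% of all genes, with a median of 0.00.

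The genes past 1.5-fold in SK-MEL-28 were of several roles. IGFBP3, a TGF-beta target, had 1105 and 660 counts (log2 ratio -0.77), and CRIM1, a membrane protein that binds BMPs, 686 and 321 (-1.12). SMAD9, a BMP receptor SMAD, had 577 and 296 counts (-0.99), and the ligand BMP2 had 82 and 48 (-0.78). KLF10, an early TGF-beta response gene, was higher, with 783 and 1230 counts (0.62). In A375 the BMP antagonist NOG had 51 and 30 counts (-0.93, -1.68 to -0.30) and SNAI2, a repressor of E-cadherin, 37 and 82 (0.91, 0.36 to 1.54), both at low counts. In A375, IGFBP3 was at -0.30, CRIM1 at -0.18 and KLF10 at -0.13, BMP2 had 212 and 328 counts (0.42) and SMAD9 28 and 39 (0.25, -0.47 to 1.02). SNAI2 had 11021 and 10480 counts in SK-MEL-28 (-0.10, -0.14 to -0.07), and NOG 15 and 14 (-0.11, -1.29 to 1.02).

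**Figure D5:**
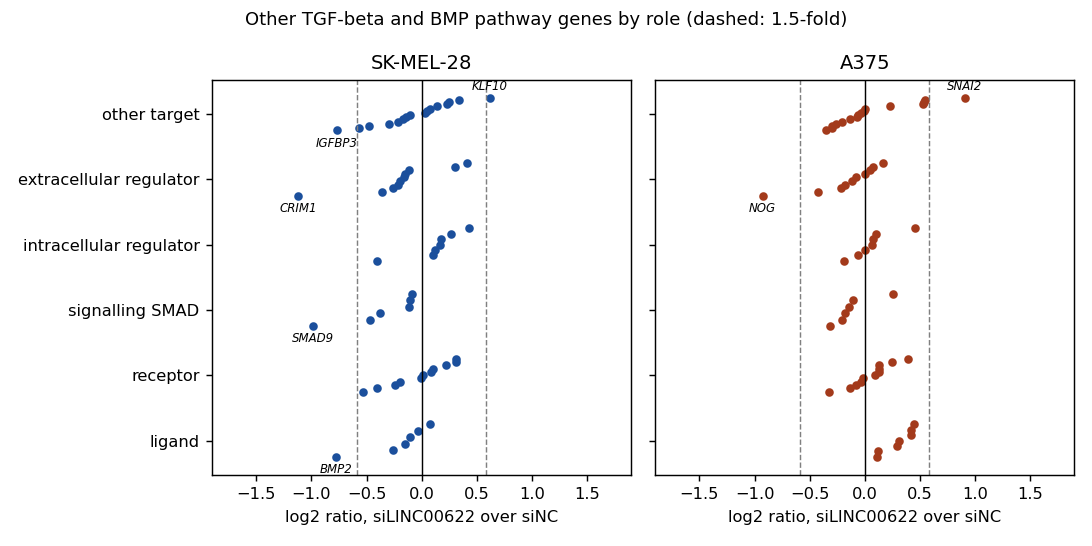
Log2 ratio of siLINC00622 over siNC for the other pathway genes with enough counts, 1 gene left out, by role, in SK-MEL-28 and A375, 1 point per gene with dashed lines at 1.5-fold and no error bars. CRIM1, SMAD9, BMP2 and IGFBP3 lie left of the dashed line and KLF10 right of it in SK-MEL-28, and NOG and SNAI2 lie outside the lines in A375.

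No receptor was past 1.5-fold in either line. TGFBR3, the betaglycan co-receptor, had the lowest receptor ratio in both, -0.53 in SK-MEL-28 and -0.33 in A375. TGFBR1 was at 0.10 and 0.25, TGFBR2 at 0.01 and 0.39, BMPR2 at 0.31 and 0.13, and ACVR1 at -0.41 and 0.13. Of 56 other pathway genes, 7 had counting intervals above 0 in both lines and 12 below, beside 11.0% and 11.9% of all genes. The 7 included 3 of 11 receptors and 3 of 7 intracellular regulators, and the 12 included 4 of 6 signalling SMADs. The SMADs below 0 were SMAD4 (-0.38 and -0.31), SMAD3 (-0.47 and -0.20), SMAD2 (-0.09 and -0.11) and SMAD5 (-0.10 and -0.14). SMAD1 was at -0.12 and -0.18. Such intervals leave out 0 more readily at high counts, and SMAD2 and SMAD5 had 2640 to 3797 counts per library. The adjusted p over both lines was 0.191 for SMAD4 and 0.228 for SMAD3 by edgeR, so these ratios did not pass the test.

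Across the 4 libraries ID1 followed the line closely and the treatment little. Among 10485 genes with at least 100 counts in every library, the 5 whose centred log2 levels lay nearest to those of ID1 were AVEN, NFIX, JAGN1, COG8 and MYL6B, with root mean squared distances of 0.0148, 0.0188, 0.0217, 0.027 and 0.0276 on the log2 scale. NFIX, for example, had 2893 and 3268 counts in SK-MEL-28, against 5800 and 7576 in A375. The distances take no account of counting error, and AVEN had only 232 and 258 counts in SK-MEL-28. The order among such close genes is therefore uncertain. With 4 libraries that differ mainly by line, such closeness describes a shared line ratio.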

How the data were processed

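RNA was extracted with Trizol, treated with DNase I and sequenced from 1 culture per line and treatment. The authors deposited 1 table with read counts, CPM, FPKM and TPM per gene and library. Counts deposited by the authors were used for ratios and tests, and the FPKM and CPM values deposited by the authors for levels and as alternatives. TPM was not used. The submitters' processing notes name HISAT2, TopHat2, Bowtie2, HISAT and the build hg19; the counting tool and annotation are not given in the sources used here, and 220 genes of the table carry assembled-transcript identifiers.

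Within a line, counts were scaled by TMM within that line (edgeR 4.0.16, R 4.3.3) and log2 ratios taken with a prior count of 2. Over 4 libraries, edgeR's quasi-likelihood test was fitted to 16258 genes with line and treatment as terms, after filterByExpr, with Benjamini-Hochberg adjustment over all genes. Line is the block because both libraries of a line come from the same cell line. Deviations of same-line libraries from the treatment means correlated at r = 0.965. With 2 lines this value is the same for each, and it only restates that line differences were alike under both siRNAs. The scripts were tested on simulated data. Alternatives were DESeq2 1.42.0, RLE scaling, library totals, other prior counts, filters and folds, the deposited FPKM and CPM, and no block.

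The genes and lists were chosen with earlier results of these data known. The text names the 10 genes, LINC00622, the receptors and signalling SMADs, the E proteins, other pathway genes over 1.5-fold in a line with an interval apart from 0 and at least 50 counts in 1 library, and the 5 genes nearest to ID1. Other pathway genes named for the difference between the lines, FN1, the cell type markers and HNRNPUL1 were added after their values were seen. Of the other pathway genes, 1 is included in the counts and not reported here by name or in a figure. Promoters came from RefSeq, UTRs and positions from GENCODE 29, and siRNA sequences from the study's supplement, matched to the LINC00622 transcript. The total of 31269923 to 36384819 counts per library sets the counting error, and it says nothing of the spread between cultures.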

Additional observations from a re-analysis of the deposited data

Results flagged for a closer look

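The log2 ratio of siLINC00622 over siNC for ID4 was -0.37 in the SK-MEL-28 pair of libraries and 0.81 in the A375 pair, with the single ratio of each line on opposite sides of 0. The difference between the lines was not tested, since 1 library per line and treatment leaves no residual degree of freedom, and the A375 value rests on 18 and 38 counts.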

How the results depend on the processing

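Ratios of the 10 genes within a line were recomputed under 7 alternatives in each line, 140 values in all. None changed sign, 139 stayed within the counting interval, and 1 did not, TGFB1 in SK-MEL-28, at -0.81 on log2(FPKM + 1) from the deposited values, which understates ratios of low genes. The A375 ratio of ID4 ranged from 0.14 to 0.85, and with at least 50 counts or a fold over 2 the number of the 10 genes higher in A375 became 0. Over all genes in SK-MEL-28 the number over the fold threshold higher was 1081 without a filter, 356 with at least 50 counts and 165 at a fold over 2, and the number lower was 638 with at least 50 counts and 266 at a fold over 2. In A375 it was 405 higher with at least 50 counts and 154 at a fold over 2, and 1064 lower without a filter, 312 with at least 50 counts and 134 at a fold over 2. For siLINC00622 against siNC over both lines the number of genes called was 144 higher and 158 lower by DESeq2, 1 and 0 with RLE scaling, 54 and 59 without a filter, and 0 and 0 with no replicate block, where 25 genes had an unadjusted p under 0.05. The number of the 10 genes called was 0 in each of these fits, and for SK-MEL-28 against A375 it was 6 higher and 4 lower in each. Why RLE scaling changed the count was not tested. Line ratios taken with library totals or FPKM, chosen after seeing the data, kept their direction for all 10 genes. No replicate could be left out, because each line and treatment has 1 library and the fit over 4 libraries has 1 residual degree of freedom.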
